A study of Mus musculus with 96 samples.

Results

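The 10 genes described here encode transcription factors named for the distal nephron and the collecting duct: Foxi1, Tfcp2l1, Gata2, Gata3, Emx1, Emx2, Lhx1, Elf5, Grhl2 and Hmx2. They were taken by symbol from a table of 54532 mouse genes. Each had 1 row, and all 10 were among the 33793 genes kept for testing, which reached 1 TPM in at least 3 mice. TPM, a share of all transcripts in a library, is a level per transcript length. The libraries came from kidneys of male C57BL/6 mice aged 6 to 8 weeks on normal chow and water, with no treatment named, from which glomeruli and 14 tubule segments had been dissected by hand. In order, the segments were the early proximal convoluted tubule (PTS1), the proximal straight tubule of the cortex (PTS2) and of the outer medulla (PTS3), the descending limb of short loops (DTL1) and of long loops in the outer (DTL2) and inner medulla (DTL3), and the thin ascending limb (ATL). After the thick ascending limb of the medulla (MTAL) and cortex (CTAL) came the tubule's distal convolution (DCT) and connecting part (CNT), and then the cortical (CCD), outer medullary (OMCD) and inner medullary (IMCD) stretch of the collecting duct. Mice were counted by number within each segment, 53 in all. There were 5 each in CCD, CTAL and PTS2, 4 each in OMCD and ATL, and 3 in each of the 10 remaining groups. The same numbers recur between segments, and whether they mark the same animals is not known here. The number of animals may thus be under 53. Each mouse gave up to 3 pieces of a segment, which were averaged.

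The distal nephron sets the final salt, acid and water content of urine. Its last segments mix principal cells, which take up sodium and water under aldosterone and vasopressin, with intercalated cells, which move acid or base. Foxi1 is a forkhead factor required for intercalated cells, and Tfcp2l1, of the CP2 and grainyhead family, is needed for both collecting duct cell types to form. Gata2 acts on water channel genes of the collecting duct, while Gata3, Emx2 and Lhx1 are needed early, when the duct system of the kidney forms. Grhl2 controls genes of epithelial junctions. Elf5 belongs to the ETS family and Emx1, Emx2, Lhx1 and Hmx2 to the homeobox families.

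Sequence of the promoter, as RefSeq places it on GRCm38.p6, was at hand for 9 of the members, with 2 windows each for Gata2, Elf5 and Hmx2. The 250 bases before the start of 4 of them are printed 5′ to 3′ because they hold windows poor and rich in CG dinucleotides and include the homeobox pair whose levels ran in opposite directions. Capitals mark CG dinucleotides.
Foxi1, chr11:34208090-34208339, minus strand: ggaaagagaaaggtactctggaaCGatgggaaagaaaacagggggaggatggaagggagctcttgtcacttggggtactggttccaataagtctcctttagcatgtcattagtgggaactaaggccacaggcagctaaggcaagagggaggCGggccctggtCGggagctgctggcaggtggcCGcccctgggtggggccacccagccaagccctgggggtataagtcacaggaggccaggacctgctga
Elf5, chr2:103411848-103412097, plus strand: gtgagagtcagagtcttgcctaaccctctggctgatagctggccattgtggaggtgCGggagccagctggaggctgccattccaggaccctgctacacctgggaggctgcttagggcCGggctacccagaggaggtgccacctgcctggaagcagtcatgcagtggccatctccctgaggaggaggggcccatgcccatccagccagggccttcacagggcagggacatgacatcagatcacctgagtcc
Emx1, chr6:85187681-85187930, plus strand: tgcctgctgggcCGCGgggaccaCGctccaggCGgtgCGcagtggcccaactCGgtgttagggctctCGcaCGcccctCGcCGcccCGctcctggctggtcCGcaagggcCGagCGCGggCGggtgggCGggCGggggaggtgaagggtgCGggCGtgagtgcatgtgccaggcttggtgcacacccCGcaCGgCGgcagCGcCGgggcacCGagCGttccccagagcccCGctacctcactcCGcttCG
Emx2, chr19:59458440-59458689, plus strand: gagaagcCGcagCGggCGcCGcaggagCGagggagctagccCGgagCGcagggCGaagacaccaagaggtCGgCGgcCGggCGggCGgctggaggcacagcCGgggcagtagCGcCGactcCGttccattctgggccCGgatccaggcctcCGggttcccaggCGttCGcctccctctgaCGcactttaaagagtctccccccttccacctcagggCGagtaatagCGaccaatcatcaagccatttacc
CG dinucleotides numbered 4 in the Foxi1 window and 2 in this Elf5 window, against 30 for Emx1 and 24 for Emx2 and a median of 6 over 32851 promoters. The second Elf5 window held 8, the windows of Hmx2 held 1 and 21, and those of Tfcp2l1, Gata2, Gata3 and Lhx1 held between 16 and 26. Letters known from the binding of these families were searched on both strands in the full windows, which add 50 bases after the start. Only TAATTA, a homeobox motif, was found, once, in the window of Emx2 and after its start, and 5.29% of all promoters hold it. The members' windows held no match to the other motifs. For GATA factors AGATAA was searched, which 11.2% of all promoters hold. The forkhead letters TGTTTAC are in 3.65% of all promoters. The grainyhead letters AACCGGTT are in 0.146% of them. The letters CCGGAAG, known from ETS factors, are in 8.86%.

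The DCT libraries, in which several members were high, matched their name. Slc12a3, the sodium chloride cotransporter of the DCT, measured 5528 to 5925 TPM there and at most 0.84 TPM in CNT and CCD. The DCT libraries also held genes of the next segments: Rhcg, an ammonia channel of intercalated and principal cells, at 875 to 948 TPM, Slc26a4, the chloride and bicarbonate exchanger of type B intercalated cells, at 239 to 292 TPM, and Aqp2, the vasopressin-regulated water channel of principal cells, at 97.6 to 152 TPM. The part of those cells in the members' DCT levels was not tested. IMCD libraries held Aqp2 at 25310 to 29536 TPM and the intercalated cell genes listed below at or under 3.24 TPM, except Car2, a carbonic anhydrase, at 85.2 to 112 TPM. As a gauge of background, 1457 odorant and vomeronasal receptor genes were read in every mouse. Their 95th percentile, which was at most 0.58 TPM in PTS1, PTS2, PTS3, MTAL, CTAL, DCT, CNT, CCD and IMCD, lay between 0.891 and 1.68 TPM in OMCD, 1.92 and 3.27 TPM in DTL2 and DTL3, 2.05 and 4.76 TPM in glomerulus and 4.895 and 10.61 TPM in DTL1. In ATL it was 0.12 and 0.272 TPM in mice 3 and 2 but 5.268 and 7.236 TPM in mice 6 and 4. Levels of members under these values are listed below without being read as expression.

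All 10 members differed among the 15 groups by the moderated F-test of limma (adjusted p from 8.35e-38 to 4.82e-25), as 93.9% of all genes did. Because the members were named for the distal nephron, their share there is a description. Of the sum of its 15 group means, each member had a part in the 5 groups from DCT to IMCD: 99.7% for Foxi1, 99.1% for Hmx2, 95.7% for Elf5, 91.8% for Gata2, 84.2% for Emx1, 83.9% for Gata3, 83.9% for Lhx1 and 81.6% for Tfcp2l1. Emx2, at 52.0%, and Grhl2, at 39.8%, were spread more widely than the name says. Tfcp2l1 averaged 5 TPM or more in 14 groups, the most of any member, Emx2 in 13, Grhl2 in 12, Gata2 in 9 and Gata3 and Lhx1 in 6 each, and the group with the highest Grhl2 level was DTL3, a limb of the loop of Henle. Foxi1, Hmx2, Emx1 and Elf5 reached that level in 3 or 4 groups. In bulk libraries such as these, fewer cells of a type and less RNA per cell cannot be told apart.

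**Figure D1:**
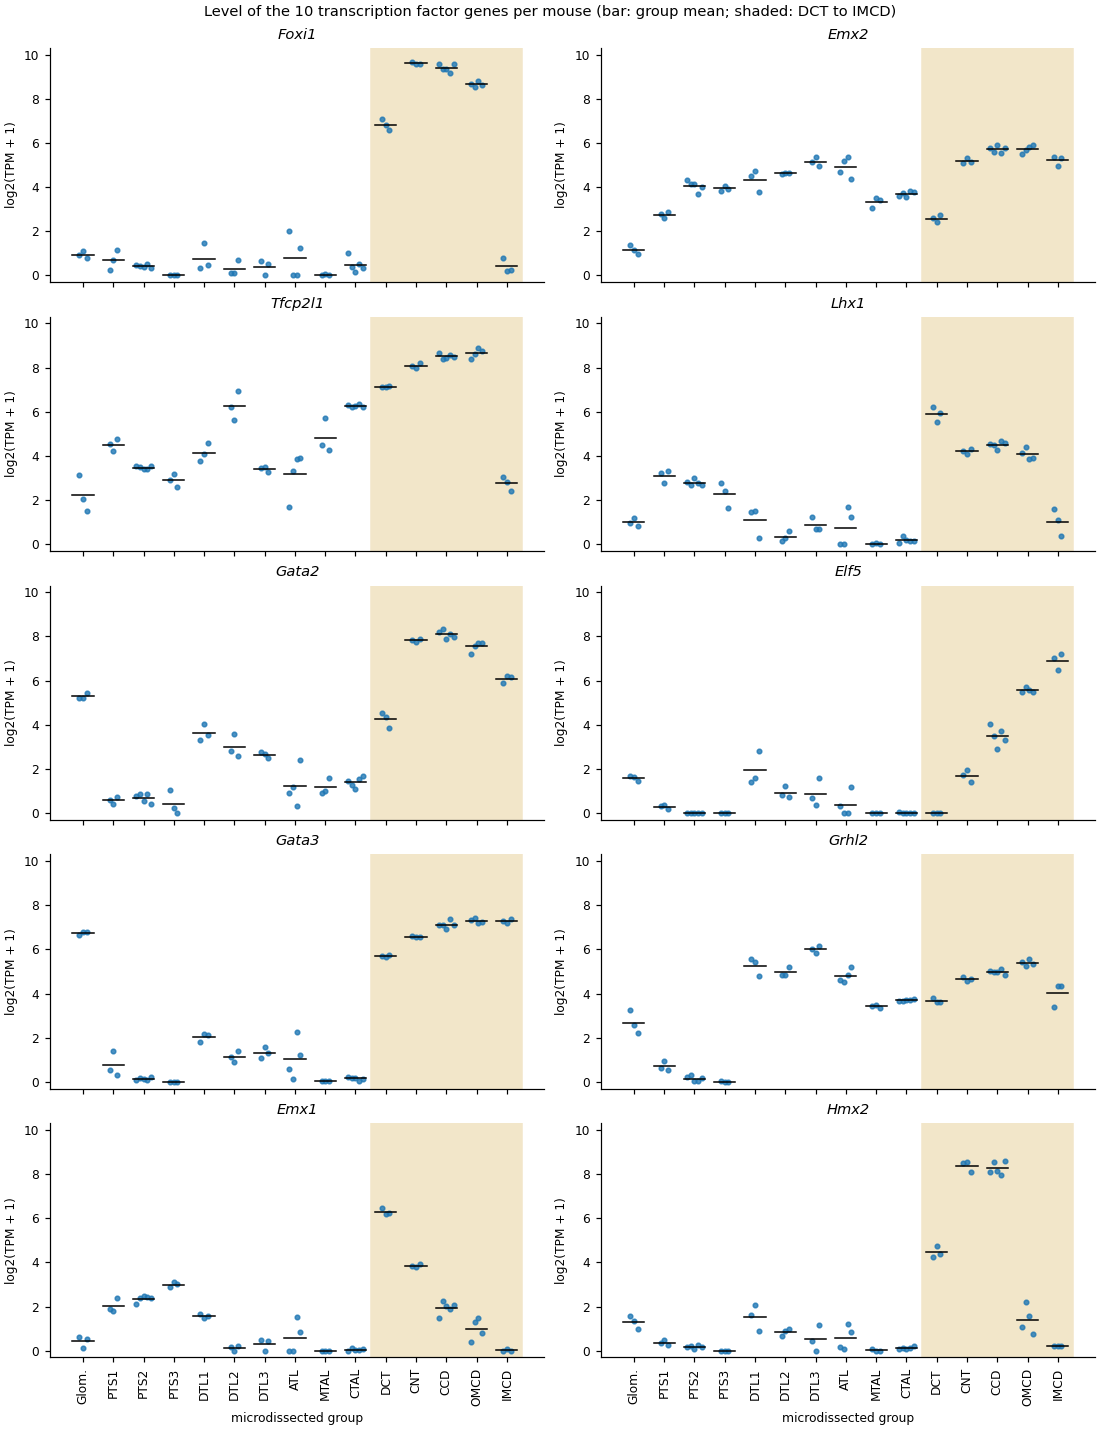
Level of each gene, as log2(TPM + 1), in the glomerulus and 14 tubule segments, with 1 point per mouse and a bar at the group mean; the 5 groups from DCT to IMCD are shaded. Foxi1 and Hmx2 stand high in CNT and CCD and near 0 in IMCD, Elf5 rises toward IMCD, Emx1 and Lhx1 are highest in DCT, and Grhl2 is highest in DTL3.

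Foxi1 (ENSMUSG00000047861) was the member with the highest level of all 10. It measured 136, 115 and 108 TPM in DCT, 819, 758 and 754 TPM in CNT, 750, 657, 642, 574 and 758 TPM in CCD, 412, 364, 453 and 399 TPM in OMCD and 1.43, 0.153 and 0.197 TPM in IMCD. CNT and CCD overlapped, while the mice of DCT and of OMCD lay apart from both and from each other. No mouse of the other 10 groups passed 3.02 TPM. On the log2(TPM + 1) scale, on which all log2 differences here are given and which understates the change of low genes, Foxi1 was 6.34 higher in DCT than in CTAL (SE 0.28, adjusted p = 5.54e-23) and a further 2.78 higher in CNT (SE 0.31, adjusted p = 1.7e-09). From CCD to OMCD it differed by -0.73 (SE 0.25, adjusted p = 0.0272), under the 1 log2 unit set for a call, and from OMCD to IMCD it fell by 8.26 (SE 0.29, adjusted p = 9.05e-27). Over the 15 group means its pattern was most like those of Atp6v1g3, a proton pump subunit of intercalated cells (Pearson r = 0.997), Rhbg, an ammonia transporter (r = 0.997), and Scnn1g, a subunit of the epithelial sodium channel of principal cells (r = 0.996). Such correlations describe group means of the same libraries.

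Tfcp2l1 (ENSMUSG00000026380) had a gradient instead. It measured 77.3, 74.2, 76.5, 81.8 and 72.8 TPM in CTAL, 136, 138 and 144 TPM in DCT, 268, 254 and 296 TPM in CNT, 407, 330, 348, 383 and 358 TPM in CCD and 335, 387, 466 and 432 TPM in OMCD, and then 7.3, 7.03 and 4.44 TPM in IMCD. The mice of CTAL, DCT, CNT and CCD did not overlap, but no single step among them passed the test: CTAL to DCT was 0.86 (SE 0.32, adjusted p = 0.104), DCT to CNT 0.96 (SE 0.36, adjusted p = 0.0808) and CNT to CCD 0.42 (SE 0.32, adjusted p = 1). These standard errors use 1 spread for all 15 groups, and the SD of Tfcp2l1 on the log2 scale was 0.04 to 0.12 in CTAL, DCT, CNT and CCD but 1.05 in ATL. When only the 7 groups from MTAL to IMCD were fitted, an alternative chosen after seeing the data, CTAL to DCT had an adjusted p of 0.00586 and DCT to CNT of 0.00466 at the same differences, still under 1 log2 unit. The fall from OMCD to IMCD was 5.9 (SE 0.33, adjusted p = 3.61e-19). Upstream, DTL2 held 74.3, 48.9 and 124 TPM, between DTL1 at 12.5 to 22.9 TPM and DTL3 at 8.67 to 10.2 TPM. The rise from DTL1 to DTL2 was 2.13 (SE 0.36, adjusted p = 6.14e-06) and the fall from DTL2 to DTL3 was 2.87 (SE 0.36, adjusted p = 2.54e-08). In MTAL mouse 2 stood at 51.9 TPM against 21.4 and 18.2 TPM, and the rise of 1.45 from MTAL to CTAL (SE 0.32, adjusted p = 0.00159) became 1.18 without MTAL mouse 3, with an adjusted p of 0.0531. The genes most like it were Tmem213 (r = 0.919), Cds1 (r = 0.912) and Btc, an epidermal growth factor receptor ligand (r = 0.906).

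The GATA pair differed in where it was high. Gata2 (ENSMUSG00000015053) measured 22.6, 19.5 and 15.1 TPM in DCT, 227, 216 and 233 TPM in CNT, 291, 324, 232, 273 and 252 TPM in CCD, 146, 188, 207 and 208 TPM in OMCD and 58.4, 74.1 and 71.1 TPM in IMCD. It was 3.57 higher in CNT than in DCT (SE 0.29, adjusted p = 4.23e-13) and fell by 1.45 from OMCD to IMCD (SE 0.28, adjusted p = 3.87e-05). Gata3 (ENSMUSG00000015619) measured 50.8, 49.2 and 52.1 TPM in DCT, 95.6, 93.5 and 93.9 TPM in CNT, 120 to 164 TPM in CCD, 147 to 173 TPM in OMCD and 147, 157 and 166 TPM in IMCD. The mice of CCD, OMCD and IMCD overlapped for Gata3, and from OMCD to IMCD its log2 difference was 0 (SE 0.24, adjusted p = 1). Gata3 had been 5.53 higher in DCT than in CTAL (SE 0.23, adjusted p = 1.83e-23), where it was at most 0.17 TPM, and Gata2 2.85 higher (SE 0.26, adjusted p = 7.41e-12). In the descending thin limbs Gata2 measured 8.97 to 15.6 TPM in DTL1, 5.05 to 10.9 TPM in DTL2 and 4.73 to 5.86 TPM in DTL3, above the receptor background in every mouse, while Gata3, at 0.85 to 3.77 TPM, passed it in none. Gata2 was higher than in PTS3 by 3.2 in DTL1 (SE 0.29, adjusted p = 7.46e-13) and 2.55 in DTL2 (SE 0.29, adjusted p = 5.02e-10). It fell by 1.44 from DTL3 to ATL (SE 0.28, adjusted p = 5.75e-05), a call lost with a pseudocount of 5 (-0.66), after quantile normalization (-0.88) and in a fit of the 2 groups alone (adjusted p = 0.28). Both genes were also high in glomerulus, Gata3 at 99, 109 and 110 TPM and Gata2 at 36, 37 and 42.2 TPM. Summed markers of mesangium and stroma (Pdgfrb, Col1a1 and Acta2) measured 377.6 to 552.2 TPM in glomerulus and at most 5.62 TPM from DCT to IMCD. Summed markers of endothelium (Pecam1, Cdh5, Kdr and Emcn) measured 2732.8 to 2770.0 TPM in glomerulus and 10.62 to 158.4 TPM from DCT to IMCD. Among the thin limbs this endothelial sum was highest for DTL1 (748.5 to 816.4 TPM), after 20.38 to 45.5 TPM in PTS3. DTL2 mice held 281.3 to 435.4 TPM, those of DTL3 229.5 to 444.2 TPM, and ATL mice 41.67 to 88.39 TPM. The part of these cells in the GATA levels of glomerulus and of the thin limbs was not tested. Gata3 was most like Spink8 (r = 0.951), Gata2 itself (r = 0.940) and Pde8b, a cyclic AMP phosphodiesterase (r = 0.926). Gata2 was most like Cav2, a caveolin (r = 0.972), Ptgs1, a prostaglandin synthase (r = 0.958), and Bmpr1b, a bone morphogenetic protein receptor (r = 0.953). The reads of Gata3 are uncertain in part, since exons of 9230102O04Rik overlap it on the same strand, and that gene measured 57.8 to 86.0 TPM in OMCD and 26.7 to 51.8 TPM in IMCD.

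Within a library the log2 ratio of Gata3 to Gata2 was 1.44 ± 0.37 in DCT (SD, n = 3), -1.25 ± 0.05 in CNT (n = 3), -0.98 ± 0.20 in CCD (n = 5), -0.24 ± 0.30 in OMCD (n = 4) and 1.20 ± 0.21 in IMCD (n = 3). Neighbouring segments did not overlap, except CNT and CCD. The two-sided exact permutation test over mice gave p = 0.1 for DCT to CNT, 0.0159 for CCD to OMCD and 0.0571 for OMCD to IMCD, each the smallest p that these numbers of mice allow. With these numbers of mice, none of the 22 ratio tests could pass 0.05 after adjustment over all 22, whatever the ratios. These 3 had adjusted p of 0.138, 0.0873 and 0.105 by the exact permutation test. The ratio of Foxi1 to Tfcp2l1 was -0.30 ± 0.29 in DCT (n = 3), 1.52 ± 0.14 in CNT (n = 3), 0.88 ± 0.19 in CCD (n = 5) and 0.01 ± 0.19 in OMCD (n = 4), with no overlap between neighbouring segments. Its exact permutation p was 0.1, 0.0357 and 0.0159 from DCT to OMCD in turn, again the smallest possible, and 0.138, 0.0982 and 0.0873 after adjustment. Against Atp6v1b1, another proton pump subunit of those cells, Foxi1 stood at -0.69, -0.35 and -0.05 in DCT, CNT and CCD. The mice of DCT and CNT overlapped, and those of CNT and CCD through CCD mouse 2 alone, at -0.9 against 0.06 to 0.28 in the other 4. Atp6v1b1 averaged 172.8 TPM in CTAL, where Foxi1 was low, and 183.5 TPM in DCT. In OMCD the ratio stood at -1.08 ± 0.09 (n = 4), below every mouse of CCD (exact permutation p = 0.0159, adjusted 0.0873).

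**Figure D2:**
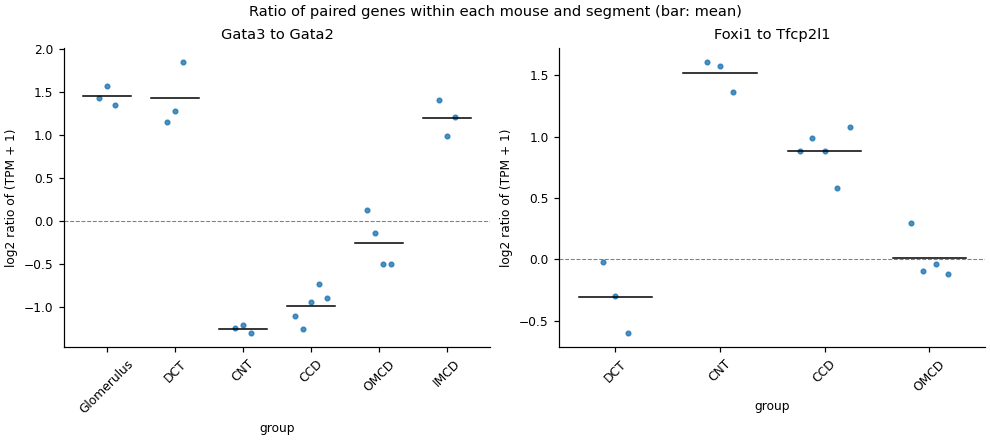
Log2 ratio of (TPM + 1) of Gata3 to Gata2 and of Foxi1 to Tfcp2l1, with 1 point per mouse, a bar at the mean and a dashed line where both genes are level, in the groups in which both average over 5 TPM. The Gata3 to Gata2 ratio is above 0 in glomerulus, DCT and IMCD and below 0 in CNT and CCD, and the Foxi1 to Tfcp2l1 ratio is highest in CNT.

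Emx1 (ENSMUSG00000033726) and Emx2 (ENSMUSG00000043969) are paralogs whose levels ran in opposite directions around the DCT. Emx1 measured 86.2, 73 and 74.7 TPM in DCT, 13.1, 12.7 and 14.2 TPM in CNT and 1.77 to 3.75 TPM in CCD, after at most 0.08 TPM in MTAL and CTAL. Emx2 measured 11.1, 12.1, 10.9, 13.1 and 12.9 TPM in CTAL, 5.05, 4.34 and 5.56 TPM in DCT, 32.7, 38.3 and 34.2 TPM in CNT and 46.1 to 58.5 TPM in CCD. For both genes the mice of CTAL, DCT, CNT and CCD lay apart. Emx1 was 6.24 higher in DCT than in CTAL (SE 0.23, adjusted p = 2.06e-25), then fell by 2.45 to CNT (SE 0.26, adjusted p = 5.44e-10) and by 1.9 to CCD (SE 0.23, adjusted p = 2.23e-07). Emx2 fell by 1.12 from CTAL to DCT (SE 0.17, adjusted p = 2.88e-06) and was 2.59 higher in CNT (SE 0.19, adjusted p = 1.81e-14). The step of Emx2 from CTAL to DCT was -0.77 with a pseudocount of 5 and -0.97 after quantile normalization, under the 1 log2 unit. The step of Emx1 from CNT to CCD had an adjusted p of 0.054 with a pseudocount of 0.1 (-2.2). Emx1 also measured 2.54 to 7.54 TPM in the mice of PTS1 to PTS3, above the receptor background there. Emx2 measured 29.9 to 40.2 TPM in DTL3 and 19.8 to 39.6 TPM in ATL and did not differ between DTL3 and CNT (0.02, SE 0.19, adjusted p = 0.964). An antisense gene, Emx2os, overlaps exons of Emx2 and measured 7.67 to 8.42 TPM in OMCD, and the library kit does not mark strand, so their reads cannot be told apart there. Emx1 was most like Maob, a monoamine oxidase (r = 0.924), Lhx1os (r = 0.836) and Lhx1 (r = 0.835). Emx2 was most like Pcgf6 (r = 0.913), Lsr, a protein of tricellular junctions (r = 0.883), and Elf3, an ETS factor of epithelia (r = 0.873).

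Lhx1 (ENSMUSG00000018698), a homeobox gene, shared the DCT peak with Emx1 but kept a plateau after it. It measured 74.7, 46.1 and 61.2 TPM in DCT, 17.8, 15.9 and 19.1 TPM in CNT, 22, 21.6, 18.5, 24.7 and 22.7 TPM in CCD and 16.6, 20.1, 13.7 and 13.9 TPM in OMCD. The mice of CNT, CCD and OMCD overlapped along this plateau, and in IMCD the gene was at 2.23, 1.15 and 0.323 TPM. It was 5.72 higher in DCT than in CTAL (SE 0.28, adjusted p = 7.25e-21), fell by 1.7 from DCT to CNT (SE 0.32, adjusted p = 8.62e-05) and fell by 3.04 from OMCD to IMCD (SE 0.3, adjusted p = 1.33e-11). With a pseudocount of 0.1 the fall from DCT to CNT was -1.75 with an adjusted p of 0.122. Lhx1 also measured 2.17 to 8.91 TPM in the mice of PTS1 to PTS3. Lhx1os, a long noncoding RNA gene named for it, measured 214.7 to 274.6 TPM in DCT and 113.6 to 136.2 TPM in PTS3, but 12.7 to 14.3 TPM in CNT. Lhx1 was most like A4galt, a glycosyltransferase (r = 0.886), Ggt6 (r = 0.875) and Nudt11 (r = 0.869).

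Hmx2 (ENSMUSG00000050100), a homeobox gene best known from the inner ear, was high in CNT and CCD and nearly absent from OMCD. It measured 18.1, 25.8 and 23.5 TPM in DCT, 363, 370 and 269 TPM in CNT, 272, 376, 283, 250 and 384 TPM in CCD, 1.1, 3.61, 2.04 and 0.69 TPM in OMCD and 0.163 to 0.183 TPM in IMCD. CNT and CCD overlapped, and all mice of OMCD lay far below them and near the receptor background, which 2 of 4 passed. The gene was 4.33 higher in DCT than in CTAL (SE 0.25, adjusted p = 2.89e-18), 3.92 higher in CNT than in DCT (SE 0.28, adjusted p = 7.37e-15) and fell by 6.88 from CCD to OMCD (SE 0.23, adjusted p = 1.61e-26). The further step of -1.18 to IMCD (SE 0.26, adjusted p = 0.000393) lay near background and was -0.91 without OMCD mouse 2. Its paralog Hmx3 was listed at 0 in every mouse of DCT, unlike Hmx2, and was low elsewhere, with 1.65 to 3.31 TPM in CNT, 3.67 to 5.67 TPM in CCD and at most 0.045 TPM in OMCD. The genes most like Hmx2 were Kcne1, a potassium channel subunit (r = 0.988), Egfem1 (r = 0.979) and Tmem163 (r = 0.979).

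At the step from CCD to OMCD, where Hmx2 fell, 1 gene known from type A intercalated cells rose and 2 known from type B cells fell. Slc26a4 measured 1430 to 2350 TPM in CCD and 0.33, 9.69, 5.76 and 1.82 TPM in OMCD, a difference of -8.92 (adjusted p = 2.37e-26), and Slc4a9, another anion transporter of type B cells, fell by 3.7 (adjusted p = 2.62e-19). In OMCD mouse 2 held the highest values of both Hmx2 and Slc26a4. Slc4a1, the anion exchanger of type A intercalated cells, was instead 1.66 higher in OMCD (adjusted p = 1.11e-11), at 1334 to 1836 TPM against 445 to 558 TPM in CCD. Of the 11 intercalated cell genes listed, these 3 were the ones called at this step, 1 higher and 2 lower, beside 12.1% of all genes called. Their median difference was -0.59 against 0.30 over all genes. Foxi1, which is known from both types, kept 364 to 453 TPM in OMCD. From OMCD to IMCD all 11 fell, with a median of -8.36 against -0.32 over all genes, as Foxi1 did. Of the 9 principal cell genes, 6 fell at that step, where 18.6% of all genes were called, among them Scnn1b, which fell by 9.16 (adjusted p = 3.26e-33), while Aqp2 in its 4 OMCD mice measured 19190 to 34804 TPM and overlapped with the IMCD range given above.

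**Figure D3:**
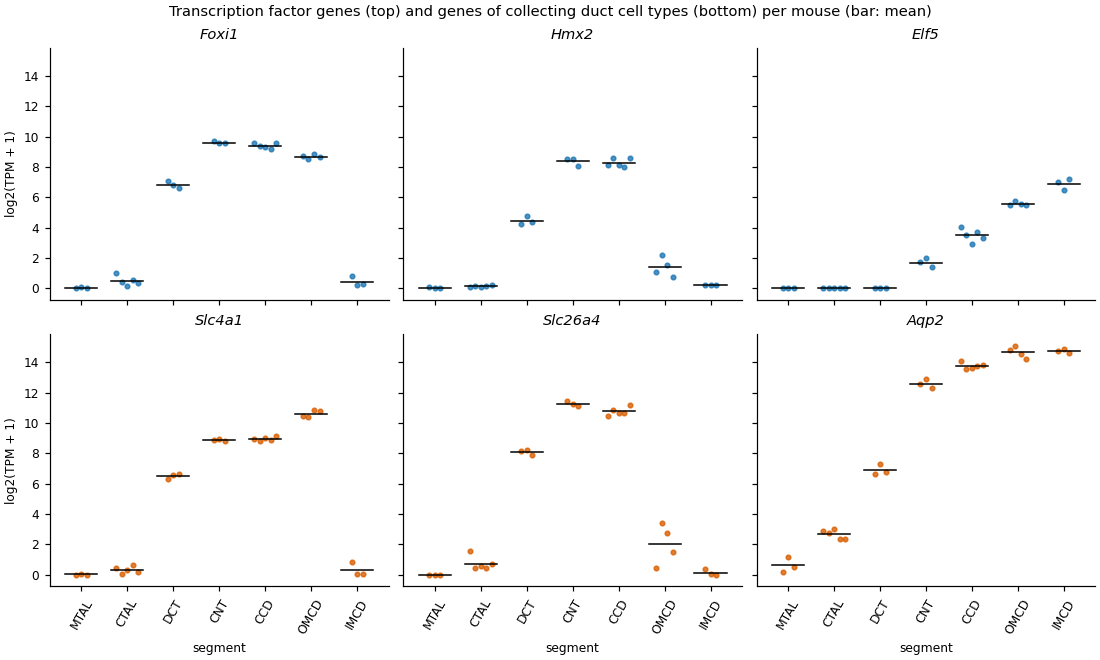
Levels of Foxi1, Hmx2 and Elf5 (top row) and of Slc4a1, Slc26a4 and Aqp2 (bottom row), as log2(TPM + 1), from MTAL to IMCD, with 1 point per mouse and a bar at the mean. Hmx2 and Slc26a4 both drop at OMCD, Slc4a1 rises there, and Elf5 and Aqp2 are the 2 of these genes that stay high in IMCD.

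Elf5 (ENSMUSG00000027186) rose along the collecting duct. It was listed at 0 in every mouse of MTAL and DCT and measured 2.29, 2.92 and 1.69 TPM in CNT, 15.3, 10.1, 6.56, 12.3 and 8.91 TPM in CCD, 43.3, 51.9, 46.3 and 43 TPM in OMCD and 130, 88.2 and 145 TPM in IMCD. From CNT on, the mice of each segment lay apart from those of the next. The steps were 1.69 from DCT to CNT (SE 0.28, adjusted p = 1.6e-05), 1.8 to CCD (SE 0.25, adjusted p = 5.41e-06), 2.06 to OMCD (SE 0.23, adjusted p = 4.21e-09) and 1.34 to IMCD (SE 0.27, adjusted p = 7.49e-05). With a pseudocount of 5 the step from DCT to CNT was 0.54, under the size set for a call. The mean of Aqp2 on the log2 scale was 13.76 for CCD mice, against 14.67 for OMCD and 14.74 for IMCD, and the mice of the last 2 overlapped. The log2 ratio of Elf5 to Aqp2 was -10.27 ± 0.31 in CCD (n = 5), -9.12 ± 0.30 in OMCD (n = 4) and -7.84 ± 0.48 in IMCD (n = 3), with no overlap. The exact permutation p was 0.0159 and 0.0571, the smallest possible, and 0.0873 and 0.105 after adjustment. Of the 5 other ETS genes listed, Elf2, Elf3 and Ehf had their highest mean from MTAL to IMCD in IMCD, and Elf1 and Elf4 in OMCD. Elf3, at 294 to 482 TPM, was 1.32 higher in IMCD than in OMCD (adjusted p = 4.39e-06), and Ehf, at 428 to 613 TPM, 1.07 higher (adjusted p = 0.00594). The call of Ehf was lost without OMCD mouse 3 (0.99) or IMCD mouse 2 (0.9). Elf1, Elf2 and Elf4 did not pass between these segments, at -0.45, 0.61 and -0.67. In MTAL, where Elf5 was listed at 0, Elf3 and Ehf measured 49.8 to 76.6 TPM and 23.0 to 86.0 TPM, and both were also high before it, at 194 to 203 TPM and 309 to 448 TPM in DTL3. Elf5 was most like Styk1 (r = 0.962), P2ry14, a purinergic receptor (r = 0.943), and Wnt9b, a Wnt ligand of the collecting duct (r = 0.932).

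Grhl2 (ENSMUSG00000022286) was all but absent from PTS1 to PTS3, where no mouse passed 0.965 TPM, and present in every segment after them. It measured 46.3, 42.2 and 26.9 TPM in DTL1, 28.1, 28.6 and 35.8 TPM in DTL2, 63.5, 56.9 and 71 TPM in DTL3, 22.2 to 35.7 TPM in ATL, 9.31 to 12.9 TPM in MTAL, CTAL and DCT, 22.8 to 25.8 TPM in CNT, 27.5 to 33.2 TPM in CCD, 37.4 to 46.6 TPM in OMCD and 10.1, 19.6 and 19.6 TPM in IMCD. No other group reached the DTL3 mice. DTL3 exceeded OMCD, the next in order, by 0.61 (SE 0.19), under the 1 log2 unit set for a call. That pair alone had an adjusted p of 0.0125 in limma, but the test of DTL3 against each of the other 14 groups gave 0.206 and was not passed. OMCD did not differ from DTL1 (0.13, SE 0.19, adjusted p = 0.551). Grhl2 rose by 5.26 from PTS3 to DTL1 (SE 0.2, adjusted p = 1.61e-25) and by 1.04 from DTL2 to DTL3 (SE 0.2, adjusted p = 0.000121), and fell by 1.22 from DTL3 to ATL (SE 0.19, adjusted p = 1.46e-06), by 1.36 from ATL to MTAL (SE 0.19, adjusted p = 7.83e-08) and by 1.37 from OMCD to IMCD (SE 0.19, adjusted p = 7.76e-08). IMCD mouse 1, the low one, also stood apart in Cdh1, at 173 TPM against 490 and 558 TPM, and in Fxyd4, at 6390 TPM against 1475 and 1457 TPM. The rise from DTL2 to DTL3 was no call without DTL2 mouse 1 (0.99), DTL2 mouse 2 (0.98) or DTL3 mouse 3 (0.96), nor with a pseudocount of 5 (0.95), median ratio rescaling (0.88) or quantile normalization (0.98). Median ratio rescaling also took DTL3 to ATL under 1 log2 unit (-0.93), and quantile normalization took ATL to MTAL (-0.89) and OMCD to IMCD (-0.99) under it. The antisense gene Gm16136 overlaps exons of Grhl2 and measured more: 194.8 to 274.4 TPM in DTL3, 152.6 to 171.3 TPM in OMCD and at most 0.57 TPM in PTS1 to PTS3. Since the kit does not mark strand, reads from the shared exons cannot be told apart, and the level of Grhl2 is uncertain. Of the 7 junction genes listed beside Grhl2, 5 were higher in DTL1 than in PTS3 and 1 was lower, where 65.5% of all genes were called. Ovol2, among the 5, lost its call without PTS3 mouse 1 (0.99) or DTL1 mouse 1 (0.71). Cldn3, the lower one, lost its call without PTS3 mouse 2 (-0.92) or DTL1 mouse 5 (-0.82). At OMCD to IMCD, where 18.6% of all genes were called, Cldn3 was lower, at -3.31 (adjusted p = 1.55e-12), and Cldn4 1.18 higher (adjusted p = 0.00063). Cdh1, which encodes E-cadherin, stood at -1.11 (adjusted p = 8.45e-05), but without IMCD mouse 1 it stood at -0.57 (adjusted p = 0.0165), no longer a call. The genes most like Grhl2 were AA986860 (r = 0.978), Limk2, a kinase acting on actin (r = 0.971), and Map2, a microtubule protein (r = 0.964).

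**Figure D4:**
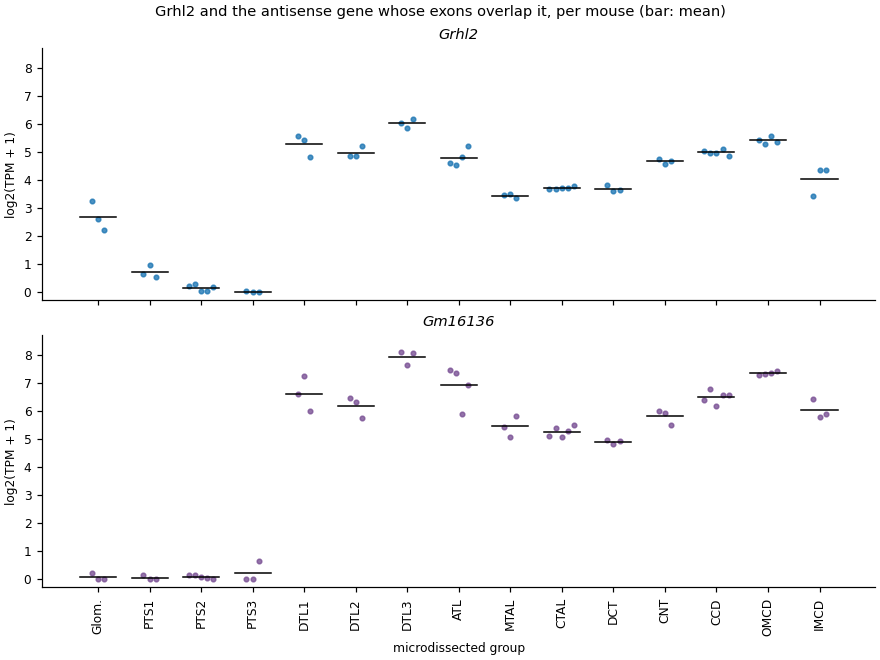
Levels of Grhl2 and of Gm16136, the antisense gene whose exons overlap it, as log2(TPM + 1), in all 15 groups, with 1 point per mouse and a bar at the mean. Both are highest in DTL3 and near 0 in PTS1 to PTS3, and Gm16136 is above Grhl2 from DTL1 to IMCD.

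Over the 14 pairs of neighbouring segments, the members' share of calls stood furthest above that of all genes, in percentage points, at CTAL to DCT and DCT to CNT, followed by OMCD to IMCD. Since the members were named for the distal nephron and chosen with earlier results known, an excess at these steps is a description. A call needed an adjusted p under 0.05 over all genes in limma and a log2 difference of at least 1. From CTAL to DCT, 6 of 10 members were higher and 1 was lower, where 4.35% of all genes were called in either direction, and from DCT to CNT 5 were higher and 2 lower, against 5.22% of genes. From OMCD to IMCD 1 was higher and 6 were lower, against 18.6%. All 10 members are protein-coding, and with protein-coding genes alone the shares called were higher, at 7.54%, 9.24% and 25.5% in turn. Of the 18 paralogs of the members that were listed, 14 were tested; at these 3 steps none was higher and 2 were lower, 4 were higher, and 3 were higher, in that order. Between CNT and CCD 2 members were called (1.12% of genes), Elf5 higher and Emx1 lower, and between CCD and OMCD 2 (12.1%), Elf5 higher and Hmx2 lower. From MTAL to CTAL 1 was called (3.15%), Tfcp2l1. The median difference of the members was 3.59 at CTAL to DCT, against -0.01 over all genes, and 1.34 at DCT to CNT, against 0.02.

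**Figure D5:**
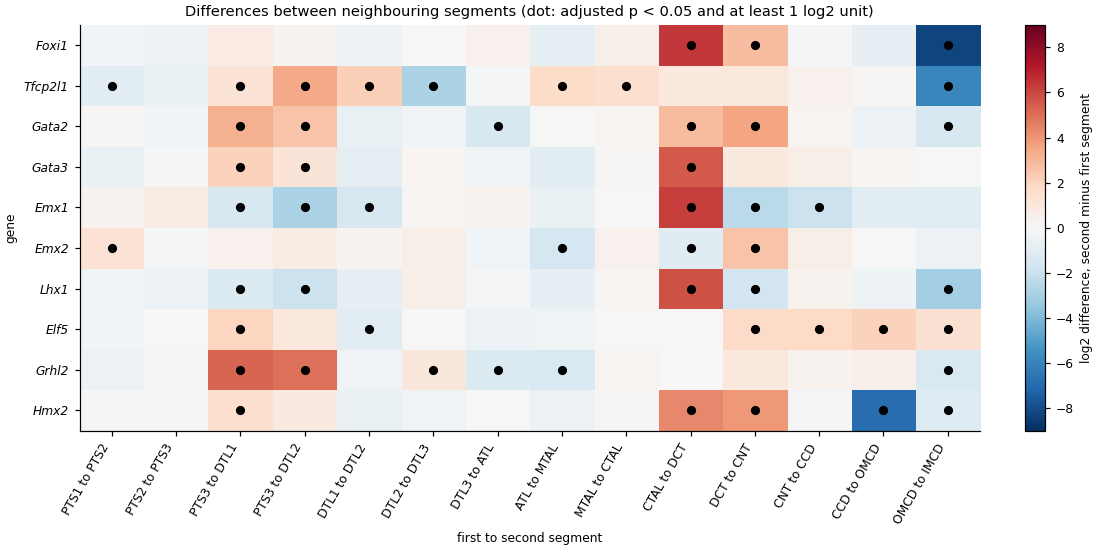
Log2 difference of each gene between neighbouring segments, second minus first, in red where the second is higher and blue where it is lower; dots mark calls at an adjusted p under 0.05 and at least 1 log2 unit. Dark cells include the rises into DCT of Foxi1, Emx1, Lhx1, Gata3 and Hmx2, the fall of Hmx2 into OMCD, the falls of Foxi1 and Tfcp2l1 into IMCD and the rises of Grhl2 from PTS3 into DTL1 and DTL2.

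In the earlier segments the members' counts stood nearer the background of all genes. PTS1 to PTS2 had 2 calls (9.57% of genes), Emx2 1.3 higher (SE 0.17, adjusted p = 5.14e-08) and Tfcp2l1 at -1.03 (SE 0.32, adjusted p = 0.0154), and PTS2 to PTS3 had 0 (4.7%). With a pseudocount of 5 neither was a call, Emx2 at 0.94 and Tfcp2l1 at -0.82. Tfcp2l1 also lost its call with all samples taken as independent (-0.99), without PTS1 mouse 1 (-1.02, adjusted p = 0.0543) and without PTS1 mouse 3 (-0.9, adjusted p = 0.095). PTS3 to DTL1 had 8 (65.5%) and PTS3 to DTL2 had 6 (40%), but the median of all genes was 1.33 and 0.71 higher in those limbs, whose receptor background was high too; Emx1 was lower in both, at -1.43 and -2.86, as was Lhx1, at -1.2 and -1.94. With a pseudocount of 5 these were under 1 log2 unit for Lhx1 in both limbs (-0.51 and -0.77) and for Emx1 in DTL1 (-0.78), and the Lhx1 call in DTL1 was also lost without PTS3 mouse 1 (-0.96), without DTL1 mouse 5 (-0.8) and in a fit of the 2 groups alone (adjusted p = 0.0844). DTL1 to DTL2 had 3 calls (28.2%), DTL2 to DTL3 had 2 (9.58%), DTL3 to ATL had 2 (14.6%) and ATL to MTAL had 3 (28.1%). Among the DTL1 to DTL2 calls, Emx1 and Elf5 passed the receptor background in no mouse of either limb. Among the calls from PTS3, Gata3, Elf5 and Hmx2 passed it in no mouse of DTL1, and Gata3 in none of DTL2. ATL to MTAL included Emx2 at -1.56 (SE 0.18, adjusted p = 1.06e-09), and Tfcp2l1, 1.62 higher (SE 0.33, adjusted p = 0.000101, but 0.232 in a fit of the 2 groups alone). Without ATL mice 4 and 6, those of high background, DTL3 to ATL again had 2 calls and ATL to MTAL again 3, an alternative chosen after seeing the data. The share of all genes called moved meanwhile from 14.6% to 31% and from 28.1% to 16.2%.

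A test of whether a gene was higher in 1 group than in each of the other 14, with a margin of at least 1 log2 unit, was passed by 3 members. Emx1 in DCT led CNT by 2.45 (SE 0.26, adjusted p = 3.35e-09) and Lhx1 in DCT led CCD by 1.4 (SE 0.28, adjusted p = 0.0033), where 0.21% of all genes passed for DCT. Elf5 in IMCD led OMCD by 1.34 (SE 0.27, adjusted p = 0.000937), where 0.527% passed for IMCD. The margin of Lhx1 was 1.23 without DCT mouse 1 and no longer passed, and with a pseudocount of 0.1 none of the 3 passed. For the other 7 members the 2 highest groups differed by less than 1 log2 unit: CNT and CCD for Foxi1 and Hmx2, CCD and CNT for Gata2, OMCD and CCD for Tfcp2l1 and Emx2, OMCD and IMCD for Gata3, and DTL3 and OMCD for Grhl2. With the 15 groups of each member put in order of level, 33 of the 140 steps from a group to the next had an adjusted p under 0.05, against 4.97% of such steps over all genes. These steps lay between 2 for Hmx2 and 5 for Grhl2 per member, and in 51 of the 140 the mice of the 2 groups did not overlap, against 8.73% of such steps over all genes. Both comparisons are descriptions, since the members were chosen for their place along the nephron.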

How the data were processed

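Per the labels' protocols, poly(A) RNA of microdissected tubules and glomeruli was amplified with the SMARTer V4 ultra-low input kit, which does not mark strand, and made into libraries with Nextera XT. Per the submitters' processing notes the tools named include STAR 2.5.4a and RSEM 1.3.0; the genome build is not given in the sources used here. The authors deposited TPM, with 2 decimals in tubule and 1 in glomerulus columns; the 93 columns sum to 999998.6 to 1000190.3, and TPM keep no depth, so the depth is unknown. The 3 single-cell samples (10X) were left aside. The name of 1 PTS2 column gives mouse number 2, but its piece letter is in no title. That column counts here as an unnumbered PTS2 mouse.

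Pieces of one mouse and segment were averaged as log2(TPM + 1), giving 53 combinations of mouse number and segment, which are called mice here and were fitted as independent. Genes reaching 1 TPM in 3 mice were fitted with limma 3.58.1 in R 4.3.3 (lmFit, eBayes with trend) on all 15 groups, tested two-sided for neighbouring segments and all 105 pairs, and adjusted by Benjamini-Hochberg over the 33793 genes; the test was tested on simulated data. The highest group was tested by the largest one-sided p of its 14 contrasts. Ratios of gene pairs, taken where both averaged over 5 TPM in both segments, were tested by two-sided exact permutation (scipy 1.17.1). Named genes were the 10 members, genes of fixed lists, and for each member the 3 genes with the highest Pearson r over group means among 11981 genes reaching 10 TPM, passing over predicted, ribosomal and mitochondrial names. Overlapping genes were found by identifier in GENCODE M21, and they and Lhx1os were named after their values were seen. Members and lists were chosen with earlier results of these data known. Leaving out each mouse for the listed genes was added after seeing the data. Figures were drawn with matplotlib 3.10.9 in Python 3.11.15 from tables made with pandas 2.3.3.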

Additional observations from a re-analysis of the deposited data

Results flagged for a closer look

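Emx1 in PTS2 mouse 1, at 3.34 TPM, lay apart from the other 4 mice of that segment, which measured 4.23 to 4.54 TPM. The gap to the nearest mouse was 0.784 of the range of log2 values, above the limit of 0.71 for 5 samples. It was the 1 such value among 34 combinations of member and segment with 4 or 5 mice and a mean of at least 1 TPM, and chance marks about 1 in 20.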

How the results depend on the processing

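Among the 26 calls of members from MTAL to IMCD, 19 kept their call under all 65 settings and 7 lost it under at least 1 setting. Most of these settings left out 1 mouse, often of a segment outside the step, which can move a call little. The losses not given beside the genes were those of Hmx2 from OMCD to IMCD with a pseudocount of 5 (-0.39) and after quantile normalization (-0.53). The counts of members moved mainly before MTAL. A pseudocount of 0.1 gave 5 calls for PTS1 to PTS2, 2 for PTS2 to PTS3, 9 for ATL to MTAL, 1 for CNT to CCD and 0 highest groups, while the calls over all genes went from 3233 to 8926, from 1588 to 2640, from 9487 to 14380 and from 378 to 264; of 5, it gave 0, 2 and 1 for PTS1 to PTS2, PTS3 to DTL1 and DTL1 to DTL2 and 1 each for DTL2 to DTL3 and DTL3 to ATL, steps at which the calls over all genes were 0.286 to 0.56 of their number. Median ratio rescaling gave 1 for DTL2 to DTL3 and 1 for DTL3 to ATL, quantile normalization gave 1 for PTS2 to PTS3, 5 for PTS3 to DTL1 and 1 each for DTL2 to DTL3 and DTL3 to ATL, samples taken as independent gave 1 for PTS1 to PTS2 and a separate fit gave 1 for DTL3 to ATL. After quantile normalization Tfcp2l1 and Emx2 were lower in DTL1 than in PTS3, by -0.64 and -1.44, reversed from the values without it; that setting moves the median of all genes there from 1.33 to 0.02. Leaving out 1 mouse at a time gave 1 to 2 calls for PTS1 to PTS2 (1 without PTS1 mouse 1 or 3) and for DTL2 to DTL3 (1 without DTL2 mouse 1 or 2 or DTL3 mouse 3), 3 to 5 for ATL to MTAL (5 without ATL mouse 3) and 0 to 1 for MTAL to CTAL (0 without MTAL mouse 3). The causes were not tested. The numbers of mice kept all 22 ratio tests from passing after adjustment under any alternative. That none changed side was therefore fixed in advance and says nothing of their stability. Over all genes, calls for CCD to OMCD, 4095, were 11271 with a pseudocount of 0.1, 839 with 5 and 1593 after quantile normalization, and for OMCD to IMCD, 6284, they were 11665 and 2826 with those pseudocounts; for CTAL to DCT and DCT to CNT, 1470 and 1765, they were 873 and 1055 with a pseudocount of 5.

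Mouse number was also fitted as a replicate block. Mice of 1 number in neighbouring segments did not deviate together: r passed 0.1 in 2 of 37 pairs, with a median of -0.009. With so few mice per group, the absence of a shared deviation cannot tell whether equal numbers mark the same animal. The replicate block left 7 calls for CTAL to DCT, 7 for DCT to CNT and 7 for OMCD to IMCD, and of 140 member differences 1 was lost.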
